A study of Homo sapiens with 6 samples.

Results

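Mucin-type O-glycosylation was followed through 8 genes: Galnt1, Galnt2, Galnt3, Galnt7, C1galt1, C1galt1c1, Gcnt1 and St3gal1. They were chosen by role, with earlier results of these data known. Their rows were found by Ensembl mouse gene identifier (ID) in a table of 34866 IDs, and all 8 were among the 11400 IDs tested. The samples are labelled as MKN45, an established line from a human gastric adenocarcinoma that the design text describes as negative for the gland mucin MUC6. In 3 samples the cells received an adenovirus with a control short hairpin RNA (shRNA), and in 3 an adenovirus with an shRNA against GOLPH3, so both groups share the viral delivery. The labels give neither the time after infection nor the dose of virus, nor whether 1 hairpin or several were used, nor whether the numbered samples are separate cultures; the p-values cover only the spread among these samples, part or all of which can be technical.

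In mucin-type O-glycosylation, a polypeptide N-acetylgalactosaminyltransferase (the Galnt family) first links N-acetylgalactosamine to a serine or threonine of a protein, giving the Tn structure. The enzyme C1galt1 (T-synthase) then adds galactose to form core 1, and needs the chaperone C1galt1c1 (Cosmc) to fold. Core 1 can be branched by Gcnt1, which makes core 2, or capped with sialic acid by St3gal1, and these enzymes use the same acceptor. Such glycans cover the mucins of the gastric surface. GOLPH3 sits on Golgi membranes through phosphatidylinositol 4-phosphate and links glycosyltransferases, the core 2 enzyme among them, to the vesicle coat that keeps them in the Golgi.

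The libraries held 6286946 to 7355057 estimated counts in the control group and 4977592 to 5676063 in the GOLPH3 shRNA group. The IDs are of mouse genes, with mm10 as the named build, while the labels give human cells; whether reads from human cells were counted on mouse gene models, or the cells were not human, was not tested. A level is therefore not read as the abundance of a transcript, and levels of different genes are not ranked, since gene lengths were not used here. The limit holds for fold changes too. They are changes of the counts given to an ID, and whether all those reads came from the named gene was not tested. GOLPH3 itself, markers of the cell type and the other genes of the pathway were not analysed here: they had been listed by symbol, and the gene name tables used here are of human genes and hold none of the table's IDs. In such bulk samples, fewer cells that express a gene and less of its RNA per cell cannot be told apart. Of the 8 genes, 7 had counts in every library that equal whole numbers exactly (tolerance 0). St3gal1 had fractional estimates in GOLPH3 shRNA replicates 1 and 3 (62.0 and 48.5 counts), so its values there are uncertain. The size of the fraction does not measure that uncertainty. Over all IDs, fractional values held 39.8% (control replicate 3) to 43.9% (GOLPH3 shRNA replicate 1) of the counts of a library.

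With GOLPH3 shRNA, the T-synthase gene C1galt1 fell 1.55-fold (95% interval 1.32 to 1.82) and the follow-on Galnt enzyme gene Galnt7 fell 1.21-fold (1.11 to 1.33). The initiating enzyme gene Galnt2 rose 1.34-fold (1.10 to 1.63). The other 5 genes were not called (edgeR's quasi-likelihood F test, with a call at a Benjamini-Hochberg adjusted p below 0.05 over all tested IDs). The values of the 3 called genes did not overlap between the groups and those of the other 5 did, where 46.3% of all tested IDs had separate values. Of all 11400 tested IDs, 33.9% were called, with 17.8% lower and 16.1% higher, so the count of 3 among 8 is near the background. The median log2 fold change was -0.10 over the 8 genes and 0.0019 over all tested IDs, and 5 of the 8 genes had a value under 0, as had 49.9% of all tested IDs. The called Galnt genes went in both directions, Galnt2 higher and the follow-on enzyme gene Galnt7 lower. Of the 4 genes outside the Galnt family 1 was called.

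The promoters of the 3 called genes, and that of C1GALT1C1 as the partner of C1GALT1, are shown because the changes differ in direction or size. They are the human sequences for the cells as labelled, taken by symbol from RefSeq (GRCh38.p14), where 7 of the 8 genes matched and St3gal1 did not. Each run is the 250 bases before the annotated start, 5′ to 3′ on the gene's strand, with matches to the GC box core GGGCGG on either strand in capitals.
GALNT2, chr1:230066988-230067237, plus strand: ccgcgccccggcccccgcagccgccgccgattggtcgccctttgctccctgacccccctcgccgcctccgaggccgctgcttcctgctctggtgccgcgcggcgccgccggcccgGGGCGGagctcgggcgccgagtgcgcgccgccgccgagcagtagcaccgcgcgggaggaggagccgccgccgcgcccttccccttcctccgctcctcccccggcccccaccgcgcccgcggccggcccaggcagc
GALNT7, chr4:173168561-173168810, plus strand: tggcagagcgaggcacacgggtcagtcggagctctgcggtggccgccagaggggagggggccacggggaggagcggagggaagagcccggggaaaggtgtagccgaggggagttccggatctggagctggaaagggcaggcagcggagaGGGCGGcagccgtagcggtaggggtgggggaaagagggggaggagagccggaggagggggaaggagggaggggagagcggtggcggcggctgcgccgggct
C1GALT1, chr7:7182294-7182543, plus strand: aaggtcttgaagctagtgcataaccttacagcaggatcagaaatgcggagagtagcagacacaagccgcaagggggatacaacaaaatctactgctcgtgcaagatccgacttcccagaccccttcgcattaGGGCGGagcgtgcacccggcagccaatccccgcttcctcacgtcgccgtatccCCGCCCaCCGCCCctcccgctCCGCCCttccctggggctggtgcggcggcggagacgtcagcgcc
C1GALT1C1, chrX:120630055-120630304, minus strand: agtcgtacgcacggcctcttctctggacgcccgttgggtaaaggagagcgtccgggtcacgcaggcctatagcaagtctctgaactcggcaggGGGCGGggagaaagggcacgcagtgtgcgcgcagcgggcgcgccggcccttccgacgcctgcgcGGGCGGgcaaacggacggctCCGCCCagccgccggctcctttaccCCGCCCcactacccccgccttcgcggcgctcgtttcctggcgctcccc

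All 4 windows are rich in G and C. The G and C content was 82.8% for GALNT2, 72.4% for GALNT7, 62.4% for C1GALT1 and 71.6% for C1GALT1C1, against a median of 58% over 35116 promoter windows of the same length. The GC box, the site to which SP1 binds, starts 135 bases before the start of GALNT2 and 101 bases before that of GALNT7. C1GALT1 has 4 matches, starting 118, 65, 58 and 44 bases before its start, and C1GALT1C1 has 4, at 157, 93, 73 and 48 bases. At least 1 match was found in 42.6% of all windows, so its presence in these 4 is common. GALNT1, GALNT3 and GCNT1, which were not called, also had matches, in at least 1 window each. The G and C content was 71.6% for GALNT3, 47.2% to 87.2% over the GALNT1 windows and 38.8% to 68.0% over those of GCNT1. GC boxes are thus not particular to the called genes. The core of the Golgi stress response element (ACGTGGC, in 2.78% of all windows) and the cyclic AMP response element (TGACGTCA, 1.65%) were searched on both strands. Neither was found in the 12 windows of the 7 matched genes, which says only that these letters are not in these windows. C1GALT1 and C1GALT1C1 thus carry the same number of GC box matches, and a link between such matches and the changes was not tested.

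Among the Galnt genes, Galnt7 (ENSMUSG00000031608), whose enzyme prefers peptides that already carry N-acetylgalactosamine, had the most uniform values. It stood at 375, 367 and 367 CPM (counts relative to the library total, scaled by trimmed mean of M values) in control replicates 1, 2 and 3, and at 305, 306 and 303 CPM in GOLPH3 shRNA replicates 1, 2 and 3. The SD of the GOLPH3 shRNA values, 1.34 CPM, is smaller than their counting error, which is 2.42% to 2.58% of each value. The uniformity is therefore not read as a trait of the gene. All 3 GOLPH3 shRNA values lay below all 3 control values, as they did for 24.2% of all tested IDs. The difference was -0.28 on the log2 scale (SE 0.063, edgeR adjusted p = 0.00278). It was called in all 16 alternatives run. The change is small, and 27.5% of all tested IDs had a lower fold change.

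Galnt2 (ENSMUSG00000089704), a broadly expressed initiating enzyme, was at 26.8, 31.2 and 24.1 CPM in the controls and at 33.7, 36.2 and 40.3 CPM with GOLPH3 shRNA. The groups did not overlap, as was the case in the higher direction for 22.1% of all tested IDs. The highest control and the lowest GOLPH3 shRNA value lay close together. Its log2 fold change was 0.42 (SE 0.13, edgeR adjusted p = 0.0213). DESeq2 gave nearly the same log2 fold change (0.42) and did not call it (adjusted p = 0.0538). The edgeR call was also lost without control replicate 1 (0.40, adjusted p = 0.0595), without control replicate 3 (0.33, adjusted p = 0.103) and without GOLPH3 shRNA replicate 3 (0.34, adjusted p = 0.0833). Over all 16 alternatives the log2 fold change ran from 0.33 to 0.52 and the adjusted p from 0.011 to 0.103.

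Galnt1 (ENSMUSG00000000420), another widely expressed initiating enzyme, was at 341, 324 and 329 CPM in the controls and at 341, 360 and 352 CPM with GOLPH3 shRNA. GOLPH3 shRNA replicate 1 lay just below control replicate 1, so the groups overlapped. Its log2 fold change was 0.083 (95% interval -0.054 to 0.22, edgeR adjusted p = 0.345). The upper end of the interval is a 1.16-fold higher level. Galnt3 (ENSMUSG00000026994), known for protecting the phosphate hormone FGF23 from cleavage, was at 135, 151 and 158 CPM in the controls and at 153, 130 and 136 CPM with GOLPH3 shRNA. The values of the groups were interleaved. The log2 fold change was -0.079 (95% interval -0.26 to 0.10, edgeR adjusted p = 0.504).

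**Figure D1:**
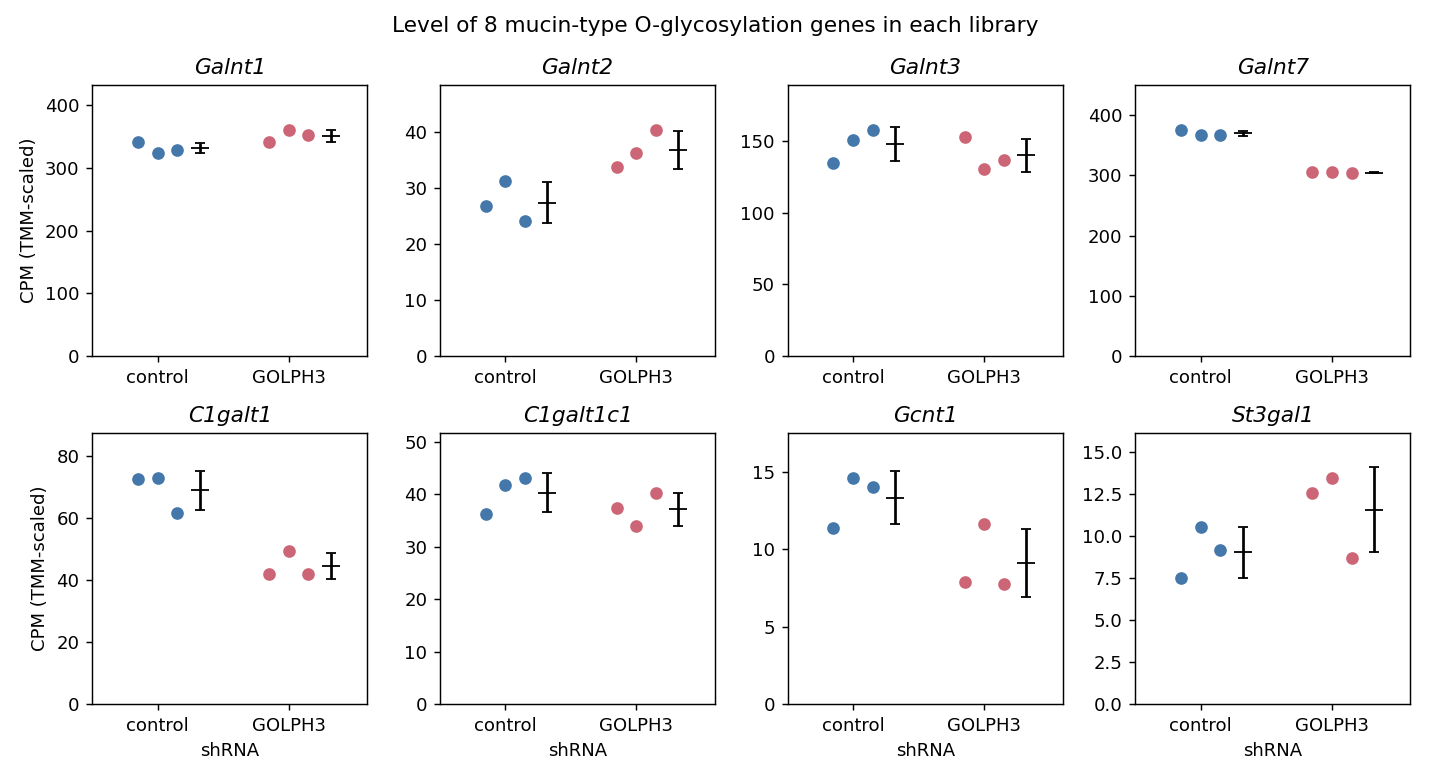
Level of each of the 8 genes, in CPM scaled by trimmed mean of M values, in the 3 control and 3 GOLPH3 shRNA libraries (points, replicates 1 to 3 from left to right; the bar beside them is the mean with its SD); each panel has its own axis from 0. The groups are apart for Galnt2, Galnt7 and C1galt1 and overlap for the other genes.

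The shares of Galnt1, Galnt2 and Galnt7 among the counts of the 4 Galnt genes did not overlap between the groups, and that of Galnt3 did. Of single tested IDs 46.3% did not overlap in CPM, and no such percentage was computed for shares of a sum. Within each library, which needs no scaling between libraries, Galnt7 held 42.8%, 42.0% and 41.8% of the counts of the 4 Galnt genes in the controls. It held 36.7%, 36.7% and 36.5% in the GOLPH3 shRNA libraries. Galnt1 held 37.8% ± 0.90 of these counts in the controls and 42.2% ± 1.18 with GOLPH3 shRNA (n = 3, SD), with no overlap. Galnt7 thus had more counts than Galnt1 in each control library and fewer in each GOLPH3 shRNA library. Gene lengths enter this order, so it does not rank the transcripts of these genes. The share of Galnt2 was 3.13% ± 0.42 and 4.41% ± 0.40, again with no overlap, and that of Galnt3 was 16.9% ± 1.35 and 16.8% ± 1.41. The shares sum to a whole, so they are not independent of each other, and they are given without a test. A lower Galnt7 share comes with a higher share of other genes. In CPM, Galnt1 overlapped between the groups and was not called, so its share is not read as a change of Galnt1. The summed level of the 4 Galnt genes was 876 ± 2.26 CPM in the controls and 832 ± 0.25 CPM with GOLPH3 shRNA. Counting error of Galnt7 alone is 2.42% to 2.58% of its value in the GOLPH3 shRNA libraries. The sums thus carry more error than these SDs show.

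C1galt1 (ENSMUSG00000042460), which alone makes core 1, had the lowest adjusted p of the 8 genes. It was at 72.5, 73.0 and 61.8 CPM in control replicates 1, 2 and 3, and at 42.2, 49.4 and 42.1 CPM in GOLPH3 shRNA replicates 1, 2 and 3. Every GOLPH3 shRNA value lay below every control value. On the log2 scale its fold change was -0.63 (SE 0.11, edgeR adjusted p = 0.000319). It was called in all 16 alternatives, with log2 fold changes from -0.72 to -0.58 and adjusted p from 1.76e-07 to 0.00388. Of all tested IDs, 10.7% had a lower fold change.

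Its chaperone C1galt1c1 (ENSMUSG00000048970) was at 36.1, 41.7 and 43.0 CPM in the controls and at 37.3, 33.8 and 40.1 CPM with GOLPH3 shRNA. These values overlapped. The log2 fold change was -0.12 (95% interval -0.37 to 0.13, edgeR adjusted p = 0.458), so a level up to 1.29-fold lower is not outside the interval. The ratio of C1galt1 to C1galt1c1 counts within a library was 2.01, 1.75 and 1.44 in the controls and 1.13, 1.46 and 1.05 with GOLPH3 shRNA. GOLPH3 shRNA replicate 2 lay just above control replicate 3, so the ratio overlapped between the groups, and a difference between the changes of enzyme and chaperone was not tested.

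**Figure D2:**
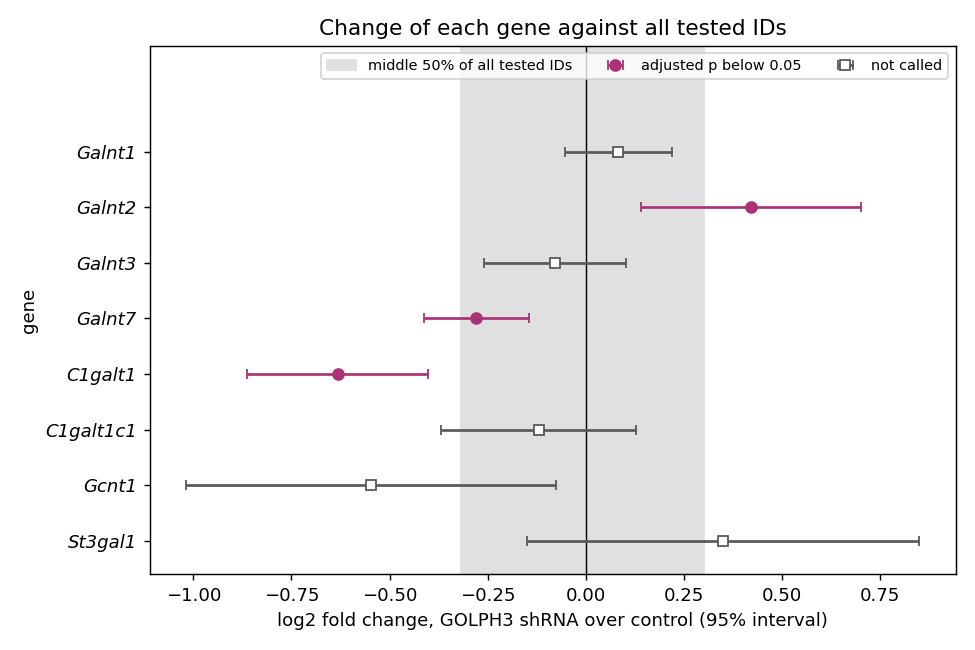
Log2 fold change of each of the 8 genes, GOLPH3 shRNA over control, with its 95% interval; filled circles passed the edgeR test at an adjusted p below 0.05, open squares did not, and the grey band holds the middle 50% of all 11400 tested IDs (-0.32 to 0.30). C1galt1 and Galnt7 lie below 0 and Galnt2 above it, and Gcnt1 and St3gal1 have the widest intervals.

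The genes that act on core 1 had the fewest counts, 39 to 107 per library, and the widest intervals. Gcnt1 (ENSMUSG00000038843), the branching enzyme, was at 11.4, 14.6 and 14.0 CPM in the controls and at 7.91, 11.6 and 7.77 CPM with GOLPH3 shRNA. GOLPH3 shRNA replicates 1 and 3 lay below all controls, and replicate 2 lay just above control replicate 1. The log2 fold change was -0.55 (95% interval -1.02 to -0.075), and it did not pass the test (edgeR adjusted p = 0.0688, unadjusted p = 0.0258 in the fit over all IDs). Without GOLPH3 shRNA replicate 2 it was -0.77 and was called (edgeR adjusted p = 0.0239); over its 16 alternatives the adjusted p ran from 0.0239 to 0.198.

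St3gal1 (ENSMUSG00000013846), the sialyl capping enzyme, was at 7.47, 10.5 and 9.14 CPM in the controls and at 12.6, 13.4 and 8.67 CPM with GOLPH3 shRNA. GOLPH3 shRNA replicates 1 and 2 lay above all controls and replicate 3 below 2 of them. The log2 fold change was 0.35 (95% interval -0.15 to 0.85, edgeR adjusted p = 0.273). The biological coefficient of variation from edgeR is a fitted value that borrows across genes and leaves out counting error. It was 0.18 for St3gal1 and 0.16 for Gcnt1, against 0.061 for Galnt1 and 0.059 for Galnt7. Counting error comes on top of it. That error is 9.67% to 16% of a value at the depth of Gcnt1 and 11.4% to 14.4% at that of St3gal1.

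The count ratio of these genes did not overlap between the groups, although neither gene was called and each overlapped alone. The ratio of St3gal1 to Gcnt1 counts within a library was 0.658, 0.720 and 0.652 in control replicates 1, 2 and 3. It was 1.59, 1.15 and 1.13 in GOLPH3 shRNA replicates 1, 2 and 3. St3gal1 had fewer counts than Gcnt1 in each control library and more in each GOLPH3 shRNA library. The mean log2 ratio was -0.57 ± 0.079 in the control libraries and 0.35 ± 0.28 after GOLPH3 shRNA (n = 3, SD), a difference of 0.92, or a 1.89-fold higher ratio. Over all pairs of tested IDs, 42.8% had a ratio that did not overlap between the groups (0.5 counts added to each value). Among pairs in which neither ID was called and each overlapped alone, the share was 8.5%. Both shares were computed after the ratio had been seen. Those pairs were not matched to this one for counts or for the direction and size of their changes. Here the log2 fold changes were opposite in sign, -0.55 for Gcnt1 and 0.35 for St3gal1. The 8.5% therefore does not say how rare such a ratio is. The difference ran from 0.76 to 1.00 when each library was left out in turn. No test was made, and 3 libraries against 3 cannot give an exact permutation p below 0.1. The gene lengths do not enter the change of a ratio, but they do enter its level, so a ratio above 1 does not show more transcripts of St3gal1 than of Gcnt1. The numerator of the ratio rests on the fractional estimates named above in 2 of the 3 GOLPH3 shRNA libraries.

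**Figure D3:**
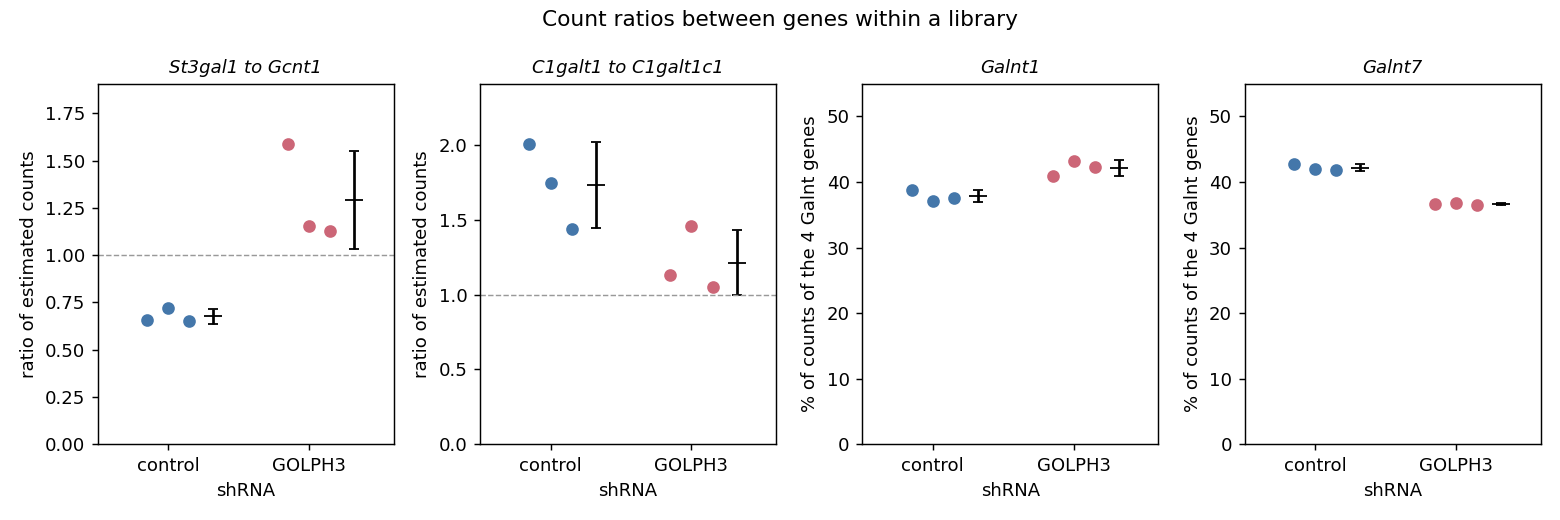
Ratios of estimated counts within each library for St3gal1 to Gcnt1 and C1galt1 to C1galt1c1 (dashed line at 1), and the percent of the counts of the 4 Galnt genes held by Galnt1 and Galnt7; points are the 3 libraries of a group, the bar is the mean with its SD, and all axes start at 0. The St3gal1 to Gcnt1 ratio is at most 0.720 in the controls and at least 1.13 with GOLPH3 shRNA, the Galnt1 and Galnt7 shares are apart, and the C1galt1 to C1galt1c1 ratio overlaps.

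Across the pathway, the 4 genes outside the Galnt family summed to 132 ± 6.95 CPM in the control libraries and 102 ± 5.25 CPM with GOLPH3 shRNA (n = 3, SD). Most of that gap is the C1galt1 difference, from 69.1 ± 6.34 to 44.6 ± 4.20 CPM. The 8 genes together summed to 1005, 1013 and 1006 CPM in the control libraries and to 932, 941 and 931 CPM in the GOLPH3 shRNA libraries. These sums are weighted to the genes with most counts, Galnt1 and Galnt7, and they are given as a description. Mean Galnt7 was 370 CPM in the controls and 305 CPM with GOLPH3 shRNA, while Galnt1, not called, was at 331 and 351 CPM. The sums thus do not show a fall of each gene. As for the Galnt sums, their close values do not show the counting error. Enzyme amounts, their place in the Golgi and the glycans themselves were not measured in these data.

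**Figure D4:**
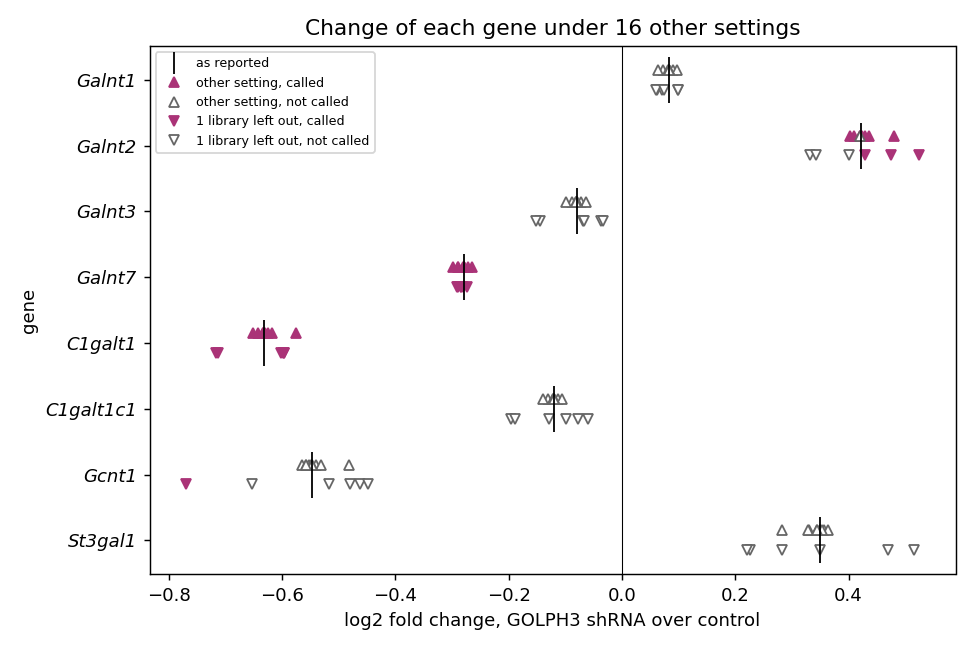
Log2 fold change of each of the 8 genes, GOLPH3 shRNA over control, as reported (black bar) and under 16 alternatives, of which 6 leave out 1 library (downward triangles); filled symbols passed the test at an adjusted p below 0.05. C1galt1 and Galnt7 were called in all 16, Galnt2 in 12, Gcnt1 in 1 and the other 4 genes in none, and no value changed sign.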

How the data were processed

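Messenger RNA libraries were prepared with a stranded kit, per the labels' protocols. For 6 libraries the authors deposited estimated counts in 1 table by mouse Ensembl ID, not scaled between libraries; the build mm10 is named per the submitters' processing notes. The aligner, quantifier, annotation and strand setting were not given in the sources used here. Estimated counts were rounded to whole numbers for the tests, and the ratios within a library used them unrounded. IDs were kept by filterByExpr (11400 of 34866, with 99.7% to 99.8% of the counts) and compared with edgeR 4.0.16 in R 4.3.3 (trimmed mean of M values, quasi-likelihood F test, Benjamini-Hochberg adjustment over all tested IDs, call at an adjusted p below 0.05). The SE is the size of the log2 fold change over the root of F, and intervals are 95%. The step was tested on simulated data. Libraries of a group differed beyond sampling noise (chi-square over its degrees of freedom 3.29 to 6.52), so none was counted as a duplicate. DESeq2 1.42.0 and limma 3.58.1 (voom), other scalings and filters, unrounded counts, the replicate block, each library left out and thinned libraries were the alternatives. The symbols of the 8 genes came with their IDs; none of the table's IDs (0) matched the human gene name tables. All 8 genes were named. The genes, and the lists planned beside them, were chosen with earlier results of these data known. The motifs were chosen for their link to Golgi stress, to CREB factors and to promoters in general.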

Additional observations from a re-analysis of the deposited data

How the results depend on the processing

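Under the 16 alternatives no gene changed direction. DESeq2 called 0 of the 8 genes higher, where edgeR called 1 (Galnt2), and with 1 library left out at a time 0 to 1 were called higher and 2 to 3 lower; why DESeq2 differed was not tested, while the libraries left out reduce the samples. Over all tested IDs, 1425 to 1952 were called higher and 1644 to 2222 lower. With the replicate block, 1842 IDs were called higher and 2045 lower, and 1 of the 8 genes was called higher and 2 lower, so it changed no call of a gene named here (C1galt1 adjusted p = 0.000372, Galnt7 0.00512, Galnt2 0.0265, Gcnt1 0.0588). Deviations of same-numbered libraries correlated at 0.032, 0.090 and 0.044, which does not settle whether the numbers mark pairs. Among the controls, replicate 1 was not closest to its own number but to GOLPH3 shRNA replicate 3 (0.037); all other libraries were closest to their own. Under every scaling run, the median over all tested IDs stayed within 0.1 of its value on the log2 scale. Adding 0.5 counts left the ratios within their spread. The GOLPH3 shRNA libraries were the shallower ones; with all libraries thinned to 4977592 counts, an alternative added after the data were examined, the same 3 genes were called. The tests of the other pathway genes, the cell type markers and GOLPH3 were not run, since they were listed by symbol and only human name tables were used here. The search for genes with a like pattern was limited by its rule to genes with a symbol and was not run. Depth limits Gcnt1 and St3gal1 most.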
